A study of Mus musculus with 20 samples.

Results

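In the developing mouse cochlea, 67 genes had an expression peak at birth. A gene was taken when its mean over the 3 cochlea libraries of postnatal day 0 (P0) was at least 5 CPM (CPM is the read count of a gene divided by the total of its library and scaled to a fixed sum) and its lowest P0 library was over 2 times the highest of the 6 libraries of embryonic day 16 (E16) and postnatal day 16 (P16). The measured cochlea values therefore chose the members, and their rise and fall in the cochlea is a description that carries no test. Of 22734 genes in the table, 12931 had a P0 mean of at least 5 CPM, and the 67 members were 0.518% of these. A further gene that met the limits is not reported.

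All animals were wild-type mice. The cochlear sensory epithelium, the strip of tissue that holds the hair cells and their supporting cells, was dissected from pooled inner ears of C57BL/6JOlaHsd mice of both sexes, with 3 libraries each at E16, P0 and P16. The superior olivary complex (SOC), a group of brainstem nuclei that receive input from both ears, was taken from pooled C57Bl6/J animals, and 4 E16, 4 P0 and 3 P16 libraries were made. Substrain, laboratory, library kit and sequencer went together with the organ, hence level differences between cochlea and SOC are confounded with them, cannot be told apart, and age was compared separately in each organ. SOC tissue of E16 was cut from frozen whole heads, whereas at P0 and P16 the brain was first taken out of the skull. Nothing in the labels says that the pools of 1 group came from separate litters, so p-values measure the spread between these libraries.

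The mouse is born deaf. Around birth the hair cells of the cochlea are differentiating, their bundles of actin-filled stereocilia are growing, and the surrounding epithelium secretes the matrix of the tectorial membrane, while spontaneous transmitter release already drives the auditory nerve. In the SOC the neurons have reached their places and are forming the synapses that later compare the sounds of the ears.

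Total counts ran from 20843679 to 33109083 per library, and a gene with no read could still reach 0.0906 to 0.144 CPM (3 counts, for counting error only). The counts look as if several tables had been joined, since within each of the following sets a gene's highest count was either 0 or over 20. The sets were the 9 cochlea libraries, 6 SOC libraries (E16 and P0, replicates 1 to 3), 4 SOC libraries (replicate 4 of both those ages, and P16 replicates 1 and 2) and 1 SOC library (P16 replicate 3). A gene at 0 in a whole joined table of the SOC may thus have had up to 20 reads in a library, 0.713 to 0.960 CPM. Of the 32 hair bundle genes measured, none was at 0 in the cochlea and 9 were at 0 in every SOC library of E16 and P0, including both transduction channel genes Tmc1 and Tmc2. Cartilage and muscle markers were high in the SOC at E16 alone, and their values stand beside the members they moved with.

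The count of members depended on the limits. With a lowest ratio of 1.5 the count was 188, and with 3 it was 19. It was 101 without E16 replicate 2 and 112 without P0 replicate 1. The members nearest to the limit were Lyve1 with a ratio of the lowest P0 to the highest other library of 2.003, Cspg5 with 2.010 and Asic2 with 2.011. Just outside lay Tcea3 with 1.999, Dab1 with 1.995 and Myo3b with 1.976.

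A set of 4 promoter windows introduces members whose course was followed in both organs. Scg2 had one of the largest peaks in the cochlea and also rose in the SOC, Barhl1 and Espnl serve hair cells, and Matn1 encodes a cartilage matrix protein. Each window holds 250 bases before and 50 after a transcription start in RefSeq (GRCm38.p6), read 5′ to 3′ on the strand of the gene. Capitals mark the E-boxes CAGCTG or CAGATG (the latter also as CATCTG, its other strand), which are letters bound by bHLH factors such as ATOH1, and the cAMP response element TGACGTCA.
Scg2, chr1:79439977-79440276, minus strand: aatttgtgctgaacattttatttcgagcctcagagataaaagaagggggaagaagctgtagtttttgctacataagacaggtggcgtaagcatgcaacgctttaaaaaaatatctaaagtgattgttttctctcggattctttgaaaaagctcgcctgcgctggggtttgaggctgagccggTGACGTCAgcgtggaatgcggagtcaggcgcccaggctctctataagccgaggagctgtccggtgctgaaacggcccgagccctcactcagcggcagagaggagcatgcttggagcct
Barhl1, chr2:28916619-28916918, minus strand: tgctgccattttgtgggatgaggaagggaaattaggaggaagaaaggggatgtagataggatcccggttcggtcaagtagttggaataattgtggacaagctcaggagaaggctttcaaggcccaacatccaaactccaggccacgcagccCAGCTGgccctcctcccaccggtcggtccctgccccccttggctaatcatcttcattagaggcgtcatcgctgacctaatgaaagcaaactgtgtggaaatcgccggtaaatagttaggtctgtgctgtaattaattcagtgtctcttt
Espnl, chr1:91321825-91322124, plus strand: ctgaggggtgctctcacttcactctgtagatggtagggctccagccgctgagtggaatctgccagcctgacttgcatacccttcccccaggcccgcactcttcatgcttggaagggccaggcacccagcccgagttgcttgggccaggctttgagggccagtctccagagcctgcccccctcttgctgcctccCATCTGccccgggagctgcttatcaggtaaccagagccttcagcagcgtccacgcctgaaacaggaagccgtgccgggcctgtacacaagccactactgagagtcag
Matn1, chr4:130944135-130944434, plus strand: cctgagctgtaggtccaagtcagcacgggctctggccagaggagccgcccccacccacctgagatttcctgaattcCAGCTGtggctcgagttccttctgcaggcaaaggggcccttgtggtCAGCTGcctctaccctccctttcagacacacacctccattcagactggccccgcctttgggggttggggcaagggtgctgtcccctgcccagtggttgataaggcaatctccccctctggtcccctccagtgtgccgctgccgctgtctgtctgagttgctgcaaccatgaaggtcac
The windows were searched for motifs and were not compared with each other base by base. That of Scg2 held TGACGTCA, which began 68 bases before the start. Those of Barhl1 and Matn1 held CAGCTG, once in Barhl1 and at 2 places in Matn1, and that of Espnl held CAGATG on the other strand 57 bases before the start.

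Windows were found for 46 of the 67 members, 60 windows in all, some of which overlap, and were searched on both strands. CAGCTG was present in 30.0% of them against 16.3% of all 32851 windows, in Barhl1, C330002G04Rik, Car9, Casq1, Ccer2, Cytl1, Lgr6, Matn1, Mst1, Nckap5, Pgam2, Syt1, Syt6 and Tigit. TGACGTCA was present in 3 windows (5.0% against 1.79%), those of Ccer2, Scg2 and Spag6l, and the TEAD motif GGAATG in 23.3% against 14.7%. Some motifs went the other way, with CAGATG in 10% against 17.2%, the TATA box TATAAA in 5.0% against 13.6% and the SOX motif ACAATG in 6.67% against 12.6%. The glucocorticoid receptor motif AGAACA (20% against 19.0%) and the RFX motif GTTGCC (8 windows against 12.5%) lay close to all windows, and the grainyhead motif AACCGGTT was in no member window. None of these motifs contains another. The shares are descriptions of letters, and the member windows had a median GC content of 56.7% against 52.7% of all windows.

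**Figure D1:**
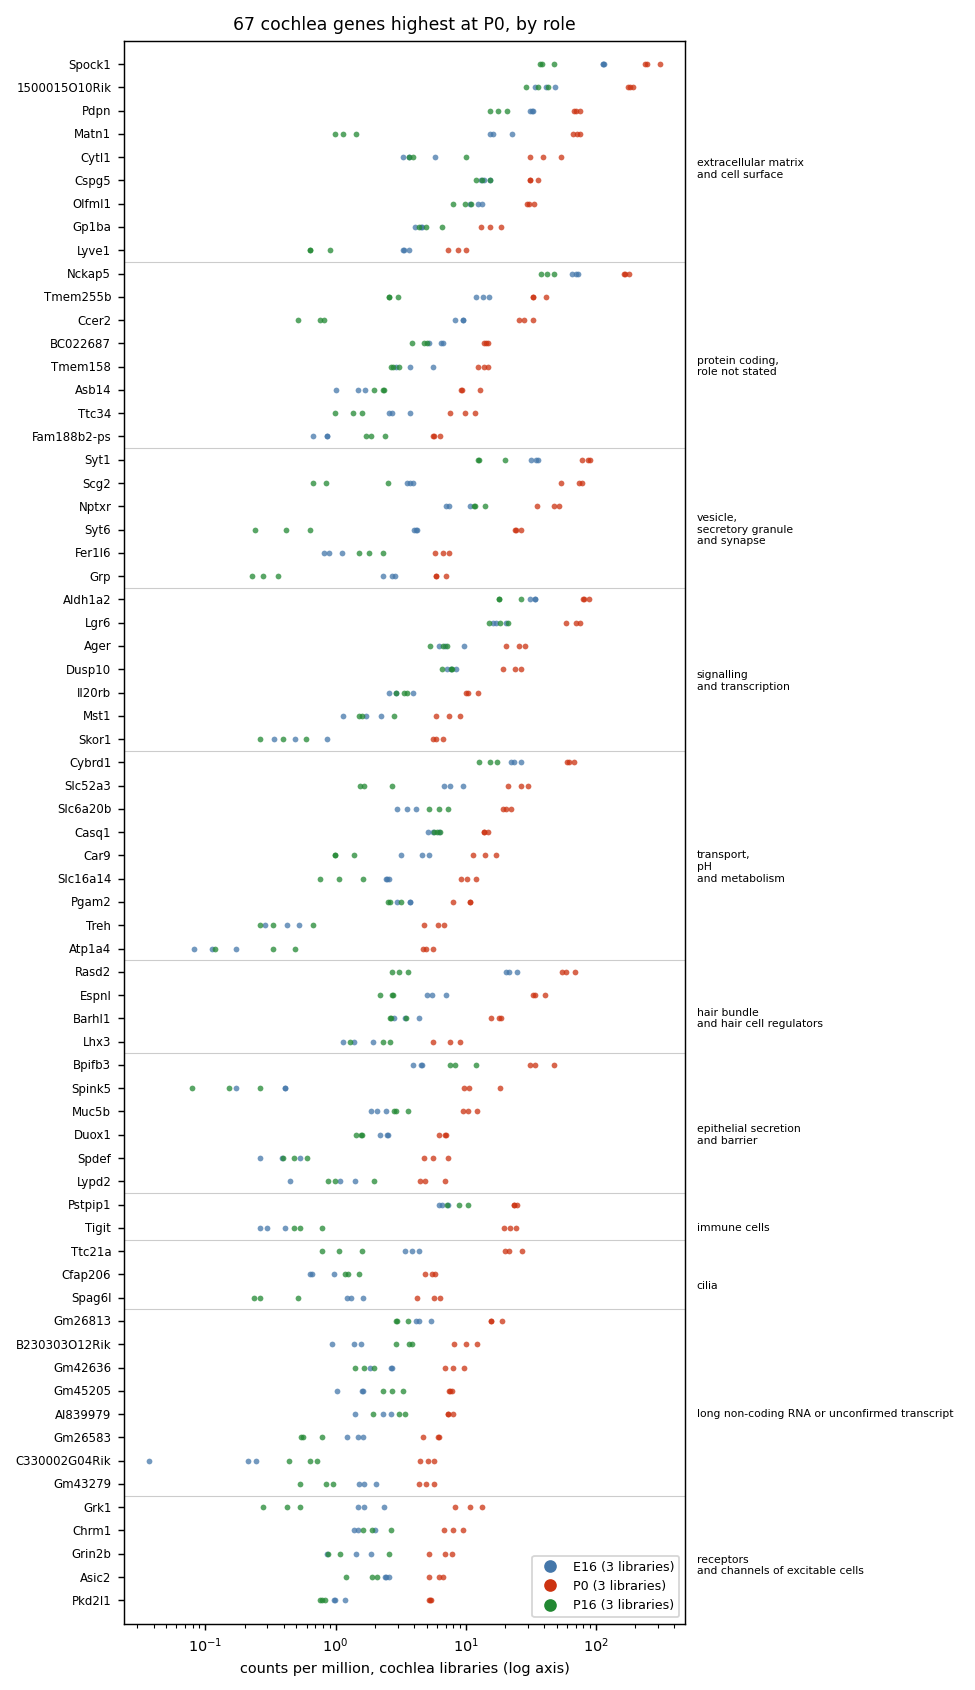
CPM (log axis) of the 67 members in the 9 cochlea libraries, grouped by role, with 1 point per library coloured by age. By the rule every P0 point lies to the right of all E16 and P16 points of its gene, from 5.02 CPM in the mean of Gm43279 to 264.8 CPM in that of Spock1.

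Most members were lowly expressed. Their median P0 mean was 13.7 CPM, against 33.8 CPM for the genes with a P0 mean of at least 5 CPM. Of the members, 27 were at 20 CPM or more and 26 under 10 CPM. The median P0 mean was 3.90 times that of E16 and 4.84 times that of P16. The ratio of the lowest P0 library to the highest other library had a median of 2.47 and exceeded 5 in 9 members. After the peak, 29 members ended with every P16 library below every E16 library, 12 with every P16 library above, and 26 overlapped. Among all 12931 genes with a P0 mean of at least 5 CPM these shares were 43.7% below and 27.2% above. The largest number of members, 27, had their highest P0 value in replicate 3, and 14 had it in replicate 1. Their median coefficient of variation over the P0 libraries was 12.6%, against 11.5% for all these genes.

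By annotation (GENCODE M21), 59 members were protein coding (88.1%, against 93.7% of the genes with a P0 mean of at least 5 CPM), 5 were long intergenic non-coding RNAs and 3 were unconfirmed transcripts. Their exons were shorter, with a median of 3176 bases against 4713, and richer in GC, at 51.8% against 49.6%. Across all genes the ratio of P0 to E16 in the cochlea followed GC content with a Spearman correlation of 0.425 and the ratio of P0 to P16 with 0.218, which describes these libraries since genes are not independent. The part of GC content in the peak was not tested. A pair of neighbours, Casq1 and Atp1a4, lay 3644 bases apart on the same strand of chromosome 1 with no gene of the table between them, and Grk1 and Tmem255b lay 13237 bases apart on chromosome 8.

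The most highly expressed group was that of extracellular matrix and cell surface genes, 9 members with P0 means from 8.65 to 264.8 CPM. Spock1 (ENSMUSG00000056222, chromosome 13, 57421195 to 57908332, minus strand) encodes testican-1, a secreted proteoglycan. It was measured at 115, 114 and 114 CPM at E16, 237, 248 and 309.7 CPM at P0 and 37.2, 38.4 and 47.7 CPM at P16. 1500015O10Rik (ENSMUSG00000026051, chromosome 1, 43730602 to 43742578, plus strand) encodes augurin, the precursor of secreted peptides. In the cochlea it had 41.3, 48.4 and 34.04 CPM at E16, 175, 181 and 192 CPM at P0 and 35.96, 28.96 and 42.9 CPM at P16. All its P0 libraries lay far above the rest, and per kilobase of exon it was the most abundant member, with 202.4 CPM per kilobase at P0 against 39.3 for the next, Pdpn. Podoplanin, the product of Pdpn, is a membrane glycoprotein that marks developing epithelia and lymphatic vessels. E16 libraries had 32.8, 32.1 and 31.4 CPM, P0 libraries 70.5, 75.9 and 67.96 CPM and P16 libraries 17.6, 15.3 and 20.6 CPM.

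The group held a pair of cartilage-type matrix genes. Matn1 (ENSMUSG00000040533, chromosome 4, 130944385 to 130955475, plus strand) encodes matrilin-1, a filament-forming protein of cartilage. Its libraries were at 15.4, 22.7 and 16.1 CPM at E16, at 75.9, 66.3 and 70.9 CPM at P0 and at 1.13, 0.997 and 1.43 CPM at P16. Its P16 libraries lay below all others. Cytl1, a secreted protein made by chondrocytes, was measured at 3.31, 5.81 and 3.69 CPM at E16, 31.1, 53.5 and 38.9 CPM at P0 and 3.66, 3.96 and 9.99 CPM at P16. In the same libraries the summed level of the 9 cartilage genes, Matn1 among them, was 4871 to 5887 CPM at E16, 10593 to 12130 CPM at P0 and 3127 to 4070 CPM at P16. Most of this was Col2a1, the main collagen of cartilage and of the tectorial membrane, at 4486 ± 499 CPM at E16, 9860 ± 1106 CPM at P0 and 2394 ± 365 CPM at P16 (SD, n = 3). It was lower at P16 than at P0 (log2 fold change -2.06, SE 0.17, adjusted p 1.91e-06 by edgeR's quasi-likelihood test), while its rise to P0 (1.23, SE 0.16) was under the fold change of 2.5 needed for a call. The sum therefore mainly follows Col2a1, and other cartilage genes took other courses. Of the 7 further cartilage genes tested, 0 were called higher and 1, Hapln1, lower from E16 to P0. From P0 to P16, 4 (Acan, Chad, Hapln1 and Ucma) were higher and 2 (Col2a1 and Col9a1) lower, against 14.4% and 10.5% of the 21097 genes tested. The markers' part in the peak of Matn1 and Cytl1 was not tested. In these bulk samples, fewer cells of a type and less RNA per cell cannot be told apart.

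The other members of this group were at lower levels. Cspg5, a neural membrane proteoglycan, was at 13.01, 15.2 and 13.9 CPM at E16, 31.2, 36.1 and 31.1 CPM at P0 and 13.4, 15.5 and 12.05 CPM at P16. Olfml1, a secreted olfactomedin-like protein, had E16 levels of 12.4, 13.3 and 10.8 CPM, P0 levels of 29.6, 33.1 and 30.6 CPM and P16 levels of 9.90, 8.03 and 11.1 CPM. Gp1ba, a platelet surface receptor, had a P0 mean of 15.7 CPM and Lyve1, the hyaluronan receptor of lymphatic vessels, one of 8.65 CPM. A list of 5 platelet genes, added after the values were seen, was highest at P16, with a summed level of 11.98 to 15.6 CPM at E16, 17.3 to 22.8 CPM at P0 and 22.7 to 70.6 CPM at P16.

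A further 6 members act in vesicles, secretory granules or synapses. Scg2 (ENSMUSG00000050711, chromosome 1, 79434669 to 79440120, minus strand) encodes secretogranin II, a protein of dense-core granules that is cut into neuropeptides. Its libraries were at 3.97, 3.55 and 3.72 CPM at E16, at 77.7, 73.9 and 54.1 CPM at P0 and at 2.53, 0.846 and 0.674 CPM at P16. Its lowest P0 library was 13.6 times its highest other library. Syt1 (ENSMUSG00000035864, chromosome 10, 108497650 to 109010982, minus strand) encodes the calcium sensor of fast transmitter release. It was measured at 34.8, 31.8 and 35.8 CPM at E16, 87.1, 78.2 and 90.1 CPM at P0 and 20.1, 12.4 and 12.6 CPM at P16. The calcium-binding relative Syt6 was nearly switched off later. In the cochlea it had 4.25, 4.02 and 4.13 CPM at E16, 24.2, 23.9 and 26.7 CPM at P0 and 0.415, 0.242 and 0.634 CPM at P16. Nptxr, the neuronal pentraxin receptor that helps to gather glutamate receptors at synapses, was measured at 6.99, 10.8 and 7.49 CPM at E16, 35.1, 52.2 and 47.8 CPM at P0 and 11.7, 11.7 and 13.9 CPM at P16. Fer1l6, a ferlin of membrane fusion, had a P0 mean of 6.60 CPM, and Grp, a neuropeptide, one of 6.29 CPM.

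Hair bundle and hair cell regulator genes comprised 4 members, all of them from the lists of hair cell genes. Espnl (ENSMUSG00000049515, chromosome 1, 91322075 to 91348306, plus strand) encodes an espin-like protein that binds actin in stereocilia. Its libraries were at 5.48, 7.10 and 5.07 CPM at E16, at 32.6, 34.2 and 40.5 CPM at P0 and at 2.19, 2.75 and 2.73 CPM at P16. Barhl1 (ENSMUSG00000026805, chromosome 2, 28907679 to 28916668, minus strand) encodes a homeobox factor that hair cells need to survive. It was measured at 3.44, 4.36 and 2.79 CPM at E16, 15.5, 18.7 and 18.02 CPM at P0 and 2.64, 2.63 and 3.45 CPM at P16. Lhx3, a LIM homeobox factor of hair cells and motor neurons, was measured at 1.15, 1.92 and 1.38 CPM at E16, 5.603, 7.60 and 9.01 CPM at P0 and 1.28, 2.30 and 2.62 CPM at P16. Its P16 libraries reached above those of E16. Rasd2, a small GTPase also known as Rhes, was at 21.5, 24.8 and 20.4 CPM at E16, 55.02, 58.6 and 69.1 CPM at P0 and 3.59, 2.72 and 3.05 CPM at P16.

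For the other genes of these lists the cochlea contrasts could be tested. Of 31 further hair bundle genes, 16 were higher at P0 than at E16 and none lower, where 4.71% and 3.49% of the 21097 genes tested were called. From P0 to P16, 3 were higher and 4 lower, against 14.4% and 10.5% of all genes. Those called in both directions were Tmc2, the early transduction channel, and Myo3b, a myosin of the stereocilia tips. Tmc2 went from 0.376 ± 0.050 CPM at E16 to 3.77 ± 0.86 CPM at P0 (log2 fold change 3.41, SE 0.25, adjusted p 1.46e-05) and 0.366 ± 0.011 CPM at P16 (-3.36, SE 0.25, adjusted p 9.45e-07, SD, n = 3), under the minimum level for members. Espn, whose protein is the closest relative of that of Espnl, rose to P0 (2.02, SE 0.20, adjusted p 4.94e-05) and was not called afterwards (-0.28, SE 0.19, adjusted p 0.206). Of 17 further hair cell genes 6 were higher at P0 than at E16 and none lower, and from P0 to P16 5 were higher and 3, Atoh1, Insm1 and Nhlh1, lower. Of 18 deafness genes that the study itself had placed at a P0 peak, a choice made on these samples, none was a member, none was called at P0 against E16 and 7 were lower at P16 than at P0. Their summed level was 2908 to 2956 CPM at E16, 3595 to 4258 CPM at P0 and 1741 to 1882 CPM at P16.

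**Figure D2:**
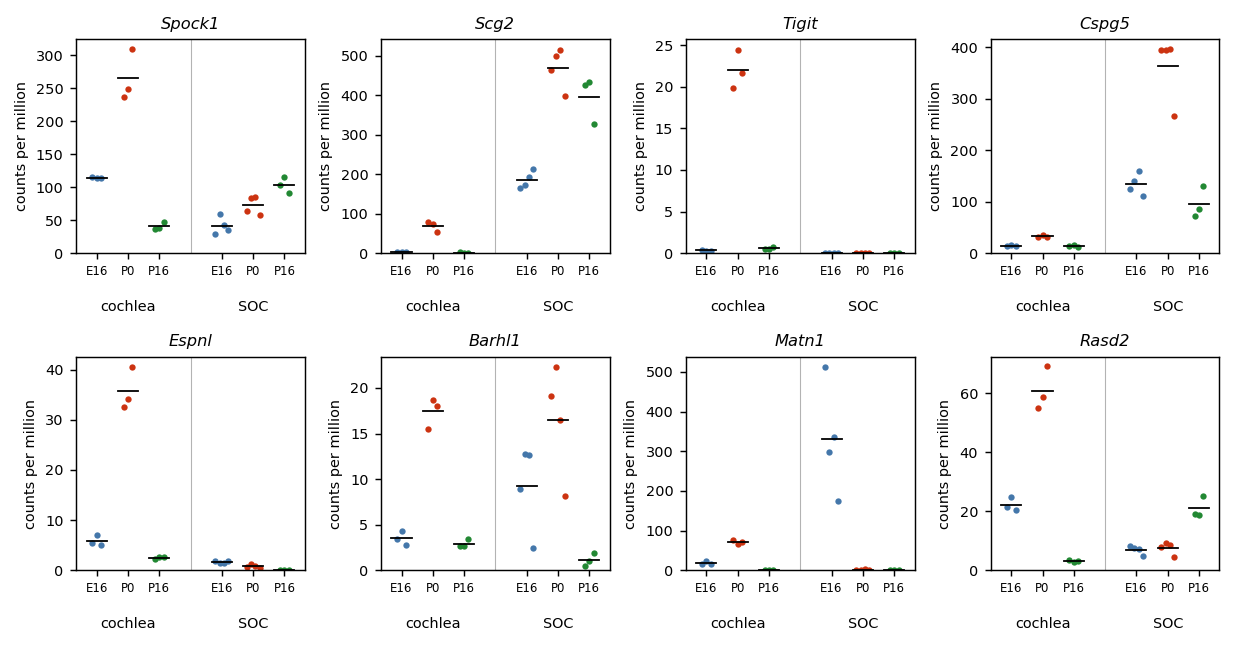
CPM in every library for 8 members, with cochlea on the left and SOC on the right of each panel, points for libraries and black lines for group means. In the SOC the means of Cspg5 and Barhl1 are highest at P0, as in the cochlea. That of Scg2 is also highest at P0 but stays high at P16. Spock1 and Rasd2 are highest at P16, Matn1 and Espnl at E16, and Tigit is listed at 0 in every SOC library.

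Signalling and transcription genes numbered 7. Aldh1a2 (ENSMUSG00000013584, chromosome 9, 71215789 to 71296243, plus strand) encodes a dehydrogenase that makes retinoic acid. Its libraries were at 33.9, 34.03 and 30.99 CPM at E16, at 81.6, 87.9 and 78.8 CPM at P0 and at 26.7, 17.9 and 17.99 CPM at P16. Lgr6, an R-spondin receptor of epithelial progenitors, was measured at 16.97, 20.3 and 16.3 CPM at E16, 59.2, 75.95 and 70.01 CPM at P0 and 18.4, 15.04 and 21.003 CPM at P16. E16 and P16 overlapped. Skor1, a transcriptional corepressor known from neurons, was at 0.491, 0.855 and 0.335 CPM at E16, 5.90, 5.61 and 6.67 CPM at P0 and 0.264, 0.393 and 0.594 CPM at P16. The remaining members were Ager, the receptor for advanced glycation end products (24.8 CPM in the P0 mean), Dusp10, a phosphatase of stress kinases (23.3 CPM), Il20rb, a cytokine receptor subunit (10.9 CPM), and Mst1, the macrophage stimulating protein (7.46 CPM).

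Among the 9 genes of transport, pH and metabolism, Cybrd1 was the highest. It encodes a ferric reductase of the cell membrane. E16 libraries had 23.4, 26.4 and 22.3 CPM, P0 libraries 61.7, 60.1 and 68.4 CPM and P16 libraries 12.6, 15.4 and 17.3 CPM. The steepest peaks of the group were at a low level. Atp1a4, the sodium pump subunit known from sperm, whose gene is the neighbour of Casq1, was measured at 0.0818, 0.171 and 0.112 CPM at E16, 4.72, 4.97 and 5.61 CPM at P0 and 0.491, 0.332 and 0.119 CPM at P16. Treh, the enzyme that splits trehalose, was at 0.286, 0.427 and 0.521 CPM at E16, 4.803, 6.11 and 6.77 CPM at P0 and 0.264, 0.332 and 0.674 CPM at P16. The riboflavin transporter gene Slc52a3 had a P0 mean of 25.9 CPM, the amino acid transporter gene Slc6a20b 20.5 CPM, Car9, a carbonic anhydrase, 14.1 CPM and Slc16a14 of the monocarboxylate transporter family 10.4 CPM. Of the exons of Slc6a20b 21.1% lie under Sacm1l on the other strand, and whether the counting used strand was not stated.

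A pair of members known from skeletal muscle stood in this group. Casq1, which encodes the calcium store protein calsequestrin, had E16 levels of 5.64, 6.24 and 5.10 CPM, P0 levels of 13.8, 14.8 and 13.9 CPM and P16 levels of 6.35, 5.68 and 5.98 CPM. Pgam2, the muscle phosphoglycerate mutase, was measured at 3.76, 3.72 and 2.98 CPM at E16, 8.05, 10.7 and 10.8 CPM at P0 and 2.61, 2.51 and 3.21 CPM at P16. The 8 muscle genes of the list summed to 5.18 to 28.0 CPM at E16, 7.25 to 77.2 CPM at P0 and 2.34 to 7.88 CPM at P16, with Tnnc2 and Myog at 0. Across the P0 libraries this sum varied over a wider range than Casq1 or Pgam2, and the sum and both genes were lowest in replicate 1. The part of muscle in the peaks of Casq1 and Pgam2 was not tested.

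Epithelial secretion and barrier genes gave 6 members. Spink5, a serine protease inhibitor of skin and mucosa, was at 0.409, 0.171 and 0.410 CPM at E16, 18.3, 9.76 and 10.6 CPM at P0 and 0.264, 0.151 and 0.0793 CPM at P16. Spdef, a transcription factor of mucus-secreting cells, had E16 levels of 0.532, 0.385 and 0.261 CPM, P0 levels of 4.76, 7.35 and 5.61 CPM and P16 levels of 0.604, 0.393 and 0.476 CPM. P0 lay far above the other ages in both. Bpifb3, of a secreted lipid-binding family of airway and mouth, had a P0 mean of 37.6 CPM, the gel-forming mucin gene Muc5b 10.7 CPM, Duox1, which makes hydrogen peroxide at epithelial surfaces, 6.71 CPM and Lypd2 5.40 CPM.

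Tigit (ENSMUSG00000071552, chromosome 16, 43648867 to 43664146, minus strand), an inhibitory receptor of T and natural killer cells, had the largest ratio of all members. In the cochlea it had 0.409, 0.299 and 0.261 CPM at E16, 19.8, 24.5 and 21.7 CPM at P0 and 0.529, 0.483 and 0.793 CPM at P16. The lowest P0 library was 24.98 times the highest other. Of 8 T and natural killer cell genes, chosen after the values were seen, 1 had a value here. It was Cd4, at 0.931 to 1.64 CPM at E16, 2.60 to 4.94 CPM at P0 and 1.39 to 2.42 CPM at P16. Their part in the level of Tigit was not tested. Pstpip1, an adaptor of the actin cytoskeleton in blood cells, was at 6.26, 7.35 and 6.56 CPM at E16, 23.6, 24.6 and 23.5 CPM at P0 and 8.84, 7.13 and 10.3 CPM at P16.

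Receptor and channel genes of excitable cells, 5 members, were all low in the cochlea, with P0 means from 5.33 to 10.7 CPM. Chrm1, a muscarinic acetylcholine receptor, had E16 levels of 1.39, 2.01 and 1.49 CPM, P0 levels of 6.82, 9.48 and 7.95 CPM and P16 levels of 2.68, 1.63 and 1.90 CPM. Pkd2l1, a channel of the polycystin family, was measured at 1.19, 0.983 and 0.968 CPM at E16, 5.22, 5.40 and 5.36 CPM at P0 and 0.793, 0.755 and 0.832 CPM at P16. The others were Grk1, the rhodopsin kinase (10.7 CPM), Grin2b, an NMDA receptor subunit (6.65 CPM), and Asic2, an acid-sensing ion channel (6.01 CPM).

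Cilia genes were 3. Ttc21a, an intraflagellar transport protein, was at 3.84, 4.40 and 3.43 CPM at E16, 19.97, 21.5 and 27.2 CPM at P0 and 0.793, 1.06 and 1.59 CPM at P16. Cfap206, of the axoneme of motile cilia, had E16 levels of 0.654, 0.641 and 0.968 CPM, P0 levels of 5.86, 4.90 and 5.48 CPM and P16 levels of 1.51, 1.24 and 1.19 CPM. Spag6l, also of the motile axoneme, had a P0 mean of 5.41 CPM. The 8 genes of the multiciliated cell list, none of them a member, summed to 29.5 to 32.8 CPM at E16, 36.4 to 46.7 CPM at P0 and 45.9 to 47.4 CPM at P16.

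Coding members with no role stated here were Nckap5, Tmem255b, Ccer2, BC022687, Tmem158, Asb14, Ttc34 and Fam188b2-ps, with P0 means from 5.91 to 170.1 CPM. Nckap5, the highest of them, was measured at 72.8, 70.4 and 65.5 CPM at E16, 166, 164 and 180.0 CPM at P0 and 37.998, 47.8 and 42.3 CPM at P16. Ccer2 was at 9.57, 8.21 and 9.498 CPM at E16, 25.6, 27.9 and 33.001 CPM at P0 and 0.755, 0.815 and 0.515 CPM at P16. Of the exons of Ccer2, 29.8% lie under Nfkbib on the other strand. Non-coding or unconfirmed transcripts were Gm26813, B230303O12Rik, Gm42636, Gm45205, AI839979, Gm26583, C330002G04Rik and Gm43279, with P0 means from 5.02 to 16.8 CPM. C330002G04Rik had E16 levels of 0.245, 0.214 and 0.0372 CPM, P0 levels of 5.73, 4.47 and 5.16 CPM and P16 levels of 0.642, 0.725 and 0.436 CPM. Of the exons of C330002G04Rik, 27.6% lie under Trpm3 and another gene on the other strand.

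In the SOC the question was what the same genes did at the same ages, with values that the choice of members had not used. No member met the same rule there. Applied to the SOC, the rule found 22 of 11993 genes (0.183%), and with a ratio of 1.5 it found 1 member, Cspg5. All 20 of the following members were at 0 in every SOC library, 29.9% of the members against 2.58% of the genes with a cochlea P0 mean of at least 5 CPM. They were Bpifb3, Tigit, Slc6a20b, Gm26813, Gp1ba, Car9, Spink5, Grk1, Muc5b, Asb14, B230303O12Rik, Gm42636, Gm45205, AI839979, Duox1, Treh, Gm26583, C330002G04Rik, Atp1a4 and Gm43279. With the joined tables, up to 0.960 CPM could be hidden in each case. The members were also lower in the cochlea than the genes they were set against, with a median P0 mean of 13.7 against 33.8 CPM. Genes of matched level were not compared.

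The other 47 members had reads in the SOC, and 45 of them passed the filter, more than 0.5 CPM in 3 or more libraries of some age, and were tested. The remaining 2, Mst1 and Fer1l6, had reads below this filter. A gene was called when edgeR's adjusted p was under 0.01, its fold change over 2.5 and the libraries of the ages compared did not overlap. From E16 to P0, 3 of the 45 were higher and 5 lower, where 3.32% and 6.92% of the 16588 genes tested were. From P0 to P16, 5 were higher and 13 lower, against 8.08% and 9.03%. From E16 to P16, 7 were higher and 17 lower, against 12.4% and 15.1%. Shares of the members tested were thus 6.67% and 11.1%, 11.1% and 28.9%, and 15.6% and 37.8%. The 3 contrasts share libraries, and the filter was passed through the highest age. In all, 27 members were called in some contrast, a share that was not counted over all genes. The median log2 fold change of the tested members was 0.09, -0.51 and -0.66 in the 3 contrasts, against -0.03, -0.07 and -0.15 for all genes. These medians moved with the libraries and settings, from -0.08 (without P0 replicate 1) to 0.12 from E16 to P0, from -0.96 (without P16 replicate 3) to -0.32 (with a term for the joined table) from P0 to P16, and from -0.87 (without P16 replicate 3) to -0.18 (with 20 counts where a joined table lacked the gene) from E16 to P16. Without P16 replicate 1 the last median was -0.36. Tested against the fold change itself with glmTreat, 0 members were higher and 5 lower from E16 to P0, where the lower count was unchanged. From P0 to P16 they were 0 and 5, and from E16 to P16 1 and 12. Of all 16588 genes, 75 and 437, 586 and 468, and 1081 and 1342 were called in this way.

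**Figure D3:**
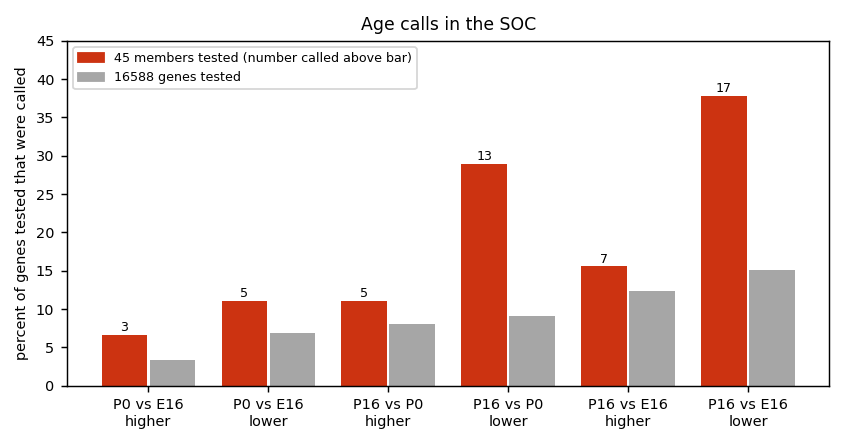
Percent of genes called in each SOC contrast and direction, for the 45 members tested (red, number called above the bar) and all 16588 genes tested (grey). The red bars for lower expression at P16, 28.9% and 37.8%, stand above the grey bars of 9.03% and 15.1%.

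A few members rose from E16 to P0 in both organs. For Scg2 the E16 libraries had 166, 174, 193 and 212 CPM, the P0 libraries 465, 501, 516 and 398 CPM and the P16 libraries 427, 435 and 328 CPM. Scg2 rose from E16 to P0 (log2 fold change of 1.37 with an SE of 0.16, edgeR adjusted p 2.94e-05), and from P0 to P16 it was not called (0.03, SE 0.17). Thus the neuropeptide precursor stayed high in the SOC, where it had returned to under 3 CPM in the cochlea. SOC libraries held Cspg5 at 124, 139, 160.3 and 111 CPM at E16, 395, 394, 396 and 266 CPM at P0 and 72.1, 85.8 and 130.1 CPM at P16. Cspg5 rose from E16 to P0 (log2 fold change of 1.48 with an SE of 0.17, edgeR adjusted p 3.44e-05), and it fell again by P16 (-1.67, SE 0.19, adjusted p 1.73e-05). P0 replicate 4 was lower than the other P0 libraries. Chrm1 was at 0.328, 1.02, 0.879 and 0.559 CPM at E16, 1.68, 1.66, 1.42 and 4.69 CPM at P0 and 1.95, 2.92 and 3.64 CPM at P16 in the SOC libraries. Chrm1 rose from E16 to P0 (log2 fold change of 1.82 with an SE of 0.47, edgeR adjusted p 0.00851). Without P0 replicate 4 it was 1.23 with an adjusted p of 0.0226, and the call was also lost without most other libraries. The member Syt1 was close to a call. For Syt1 the E16 libraries had 109, 164, 141 and 144 CPM, the P0 libraries 289, 336, 332 and 355 CPM and the P16 libraries 284, 317 and 236 CPM. Its log2 fold change from E16 to P0 was 1.28 (SE 0.16, adjusted p 7.27e-05), under the limit of 2.5-fold, which it passed without E16 replicate 2 (1.36) or P0 replicate 1 (1.34). Of the synaptic members, Nptxr (1.30, SE 0.35, adjusted p 0.0105) and Grin2b (0.97, SE 0.27, adjusted p 0.0139) did not pass the test. Nptxr was called without P0 replicate 4 (1.52, adjusted p 0.00297) and Grin2b without E16 replicate 2 (1.35, adjusted p 0.000381). Ttc34 (1.53, SE 0.45, adjusted p 0.0173) was not called, but it was with the replicate block (1.63, adjusted p 0.00221) and by DESeq2 (1.55, adjusted p 0.00235). Of the 45 members, 12 had every P0 library below every E16 library, where 20.8% of all genes tested did. Another 9 had every P0 library above every E16 library, for which the share of all genes was not counted.

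The members called lower from E16 to P0 in the SOC were those known from cartilage and muscle, and Ccer2. A further 9 members had an edgeR adjusted p under 0.01 and no call, with changes in both directions. Those lower included Pdpn (log2 fold change -0.82, SE 0.15), Olfml1 (-1.09, SE 0.17) and Nckap5 (-0.89, SE 0.17). Matn1 was at 513, 298, 336 and 174 CPM at E16, 1.54, 1.20, 2.92 and 0.416 CPM at P0 and 0.398, 0.689 and 1.35 CPM at P16 in the SOC libraries. Matn1 fell from E16 to P0 (-7.74 on the log2 scale, SE 0.54, edgeR adjusted p 7.09e-07), and every P0 and P16 library lay under 3 CPM. For Cytl1 the E16 libraries had 38.4, 26.9, 24.8 and 17.1 CPM, the P0 libraries 0.384, 0.139, 0.886 and 0.151 CPM and the P16 libraries 1.95, 0.284 and 1.46 CPM. Cytl1 fell from E16 to P0 (-6.06 on the log2 scale, SE 0.57, edgeR adjusted p 7.48e-06). In the same libraries the cartilage list without Matn1 summed to 4620 to 9445 CPM at E16, 39.3 to 89.4 CPM at P0 and 162.4 to 231.1 CPM at P16. SOC libraries held Casq1 at 10.4, 6.18, 6.42 and 6.49 CPM at E16, 0.192, 0.416, 0.753 and 0.907 CPM at P0 and 0.955, 1.05 and 1.03 CPM at P16. Casq1 fell from E16 to P0 (-3.62 on the log2 scale, SE 0.38, edgeR adjusted p 1.43e-05). Pgam2 was at 13.03, 5.54, 5.14 and 5.72 CPM at E16, 0.864, 0.231, 0.266 and 0.189 CPM at P0 and 0.597, 0.729 and 0 CPM at P16 in the SOC libraries. Pgam2 fell from E16 to P0 (-4.23 on the log2 scale, SE 0.70, edgeR adjusted p 0.000489). In Casq1 and in Pgam2, E16 replicate 1 was the highest library, as it was for the muscle list, which summed to 745.7 to 1584 CPM at E16, 9.11 to 15.4 CPM at P0 and 2.46 to 3.73 CPM at P16. All 8 muscle genes had reads at every age. The bone list summed to 1105 to 1572 CPM, 66.5 to 133.7 CPM and 258.3 to 319.6 CPM at the 3 ages. The part of these tissues in the fall of Matn1, Cytl1, Casq1 and Pgam2 was not tested. For Ccer2 the E16 libraries had 2.39, 4.11, 4.66 and 3.01 CPM, the P0 libraries 0.288, 0.647, 0.487 and 0.227 CPM and the P16 libraries 0.597, 0.567 and 0.820 CPM. Ccer2 fell from E16 to P0 (-3.05 on the log2 scale, SE 0.38, edgeR adjusted p 5.29e-05).

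**Figure D4:**
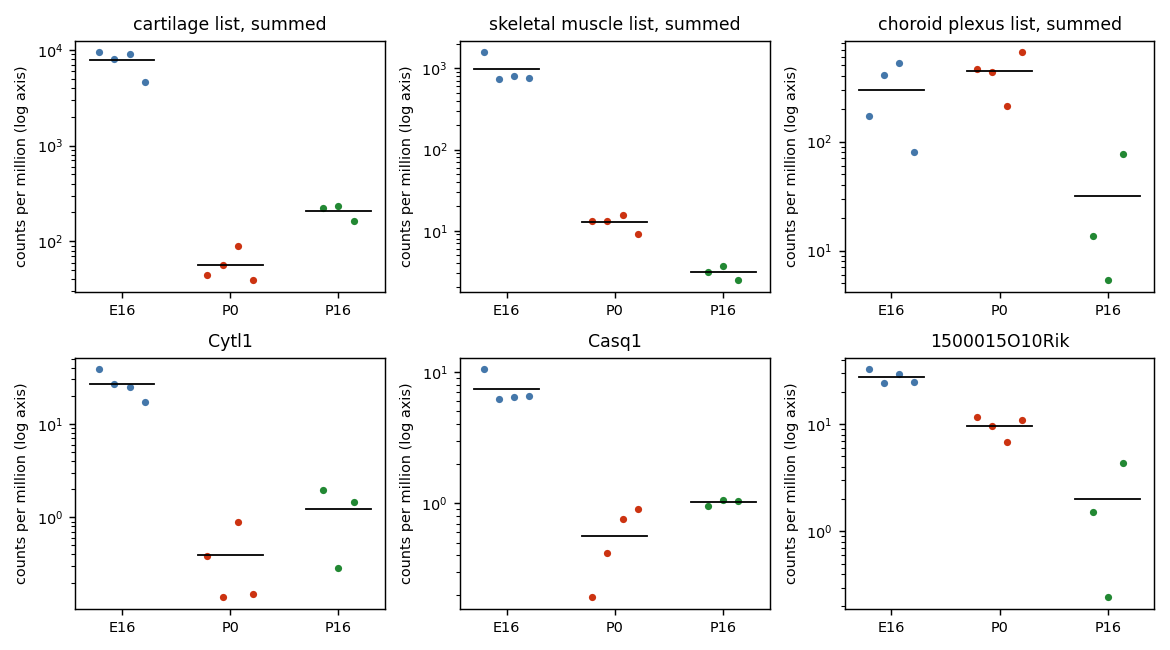
Summed CPM of the cartilage (without Matn1), skeletal muscle and choroid plexus lists, and CPM of Cytl1, Casq1 and 1500015O10Rik, in every SOC library (log axis, black lines for means). The cartilage and muscle lists and the members below them were highest at E16. Among the P16 libraries, replicate 3 was the highest for the choroid plexus list (76.8 CPM) and for 1500015O10Rik (4.31 CPM). It was also the highest for a list not shown, that of otic mesenchyme genes (187.6 CPM). From E16 to P0 the choroid plexus mean went from 295.6 to 441.7 CPM, while 1500015O10Rik was lower in every P0 library than in any E16 library. A link between list and gene was not tested.

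From P0 to P16 the members that fell included the hair cell regulators. SOC libraries held Barhl1 at 8.95, 12.7, 12.7 and 2.45 CPM at E16, 19.1, 22.3, 16.4 and 8.20 CPM at P0 and 0.438, 1.01 and 1.85 CPM at P16. Barhl1 fell from P0 to P16 (-3.65 on the log2 scale, SE 0.58, edgeR adjusted p 0.000251). Its E16 and P0 libraries overlapped, with replicate 4 the lowest at both ages. Lhx3 was at 5.48, 4.89, 7.39 and 5.63 CPM at E16, 3.79, 3.93, 4.79 and 1.70 CPM at P0 and 0.517, 0.770 and 1.46 CPM at P16 in the SOC libraries. Lhx3 fell from P0 to P16 (-1.69 on the log2 scale, SE 0.37, edgeR adjusted p 0.00227), but the call was lost without P16 replicate 1 (adjusted p 0.0134) or 2 (0.0131). For Espnl the E16 libraries had 1.83, 1.38, 1.49 and 1.81 CPM, the P0 libraries 0.624, 1.25, 0.798 and 0.529 CPM and the P16 libraries 0, 0 and 0 CPM. With the P16 libraries set to the count floors, the mean of Espnl was 2.51-fold lower at P16 than at P0. Against E16 it was 5.12-fold lower in this way. Its call did not hold when the 0s of the joined tables were set to 20 counts (adjusted p 0.155 and 0.0170). Of the hair cell list members, Rasd2 went the other way. Rasd2 was at 8.11, 7.48, 7.30 and 4.99 CPM at E16, 7.87, 9.39, 8.55 and 4.69 CPM at P0 and 19.1, 18.9 and 25.1 CPM at P16 in the SOC libraries. Rasd2 rose from P0 to P16 (log2 fold change of 1.72 with an SE of 0.21, edgeR adjusted p 3.44e-05). It was thus highest at P16 in the SOC and lowest at P16 in the cochlea. For Skor1 the E16 libraries had 16.7, 15.7, 17.7 and 9.03 CPM, the P0 libraries 9.88, 10.9, 9.84 and 5.03 CPM and the P16 libraries 0.637, 0.608 and 2.25 CPM. Skor1 fell from P0 to P16 (log2 fold change of -2.68 with an SE of 0.42, edgeR adjusted p 0.000207).

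Cilia members declined too. SOC libraries held Cfap206 at 6.18, 4.800, 6.42 and 2.24 CPM at E16, 1.54, 1.39, 1.37 and 2.80 CPM at P0 and 0.279, 0.243 and 0 CPM at P16. Cfap206 fell from P0 to P16 (log2 fold change of -3.10 with an SE of 0.68, edgeR adjusted p 0.00243), and with the count floors the mean was 4.31-fold lower. Ttc21a was at 3.70, 4.89, 5.36 and 2.54 CPM at E16, 4.17, 3.79, 2.35 and 2.27 CPM at P0 and 0.318, 0.689 and 0 CPM at P16 in the SOC libraries. Ttc21a fell from P0 to P16 (log2 fold change of -2.95 with an SE of 0.66, edgeR adjusted p 0.0026), 5.49-fold lower with the floors. It was not called without P16 replicate 1 (adjusted p 0.0120). For Spag6l the E16 libraries had 10.4, 12.3, 11.4 and 10.5 CPM, the P0 libraries 10.3, 11.3, 11.4 and 13.9 CPM and the P16 libraries 1.63, 1.46 and 1.997 CPM. Spag6l fell from P0 to P16 (log2 fold change of -2.54 with an SE of 0.17, edgeR adjusted p 2.76e-07). In the same libraries the 8 multiciliated cell genes summed to 45.5 to 73.7 CPM at E16, 38.7 to 60.0 CPM at P0 and 23.0 to 31.6 CPM at P16, and the 6 choroid plexus genes to 80.2 to 527.0 CPM, 212.8 to 662.2 CPM and 5.35 to 76.8 CPM. Their part in these declines was not tested.

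Besides Cspg5, the matrix and surface members called lower from P0 to P16 were 1500015O10Rik and Pdpn. SOC libraries held 1500015O10Rik at 32.5, 24.3, 29.2 and 24.8 CPM at E16, 11.6, 9.57, 6.82 and 10.9 CPM at P0 and 1.51, 0.243 and 4.31 CPM at P16. 1500015O10Rik fell from P0 to P16 (log2 fold change of -2.04 with an SE of 0.52, edgeR adjusted p 0.00577), and the call was lost without P0 replicate 1 (adjusted p 0.0153), 2 (0.0120) or 4 (0.0104) or P16 replicate 1 (0.0296). From E16 to P0 it was not called (-1.47, SE 0.43, adjusted p 0.0175), but it was lower with the replicate block (-1.45, adjusted p 0.0073) and with the term for the joined table (-1.47, adjusted p 0.000346). Pdpn was at 38.1, 31.2, 37.4 and 30.5 CPM at E16, 19.9, 17.3, 18.8 and 19.6 CPM at P0 and 5.05, 4.50 and 8.09 CPM at P16 in the SOC libraries. Pdpn fell from P0 to P16 (log2 fold change of -1.44 with an SE of 0.17, edgeR adjusted p 2.2e-05), with a loss of the call without P16 replicate 2, where it was -1.30. For Cybrd1 the E16 libraries had 18.04, 26.9, 22.9 and 18.6 CPM, the P0 libraries 14.8, 17.01, 17.6 and 12.3 CPM and the P16 libraries 2.98, 3.65 and 4.96 CPM. Cybrd1 fell from P0 to P16 (log2 fold change of -1.75 with an SE of 0.19, edgeR adjusted p 1.29e-05). SOC libraries held Nptxr at 52.9, 94.5, 91.1 and 33.01 CPM at E16, 142, 199, 223 and 84.3 CPM at P0 and 27.6, 37.96 and 56.5 CPM at P16. Nptxr fell from P0 to P16 (log2 fold change of -1.75 with an SE of 0.39, edgeR adjusted p 0.0025), and this call was lost without P16 replicate 1 (adjusted p 0.0165) or 2 (0.0133). With a term for the joined table the change was -1.05 (adjusted p 0.00663), under the 2.5-fold limit. Tmem158 fell as well (-2.31, SE 0.20, adjusted p 1.61e-06). From E16 to P16, Lyve1 was also lower (-1.32, SE 0.21, adjusted p 0.000126), at a fold change so close to 2.5 that DESeq2 did not call it (-1.31). The call was also lost with the replicate block (-1.24) and without E16 replicate 4, P0 replicate 4 or P16 replicate 2 or 3.

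Some members were highest in the SOC at P16. Spock1 was at 29.4, 59.2, 42.5 and 34.5 CPM at E16, 64.6, 83.4, 85.4 and 57.7 CPM at P0 and 103, 115 and 91.8 CPM at P16 in the SOC libraries. Spock1 rose from E16 to P16 (log2 fold change of 1.63 with an SE of 0.22, edgeR adjusted p 4.55e-05). Its SOC mean was highest at P16, the age at which its cochlea mean was lowest. For Pstpip1 the E16 libraries had 0.937, 1.02, 1.27 and 0.559 CPM, the P0 libraries 0.960, 0.693, 0.620 and 0.756 CPM and the P16 libraries 2.98, 2.79 and 3.60 CPM. Pstpip1 rose from P0 to P16 (log2 fold change of 2.29 with an SE of 0.32, edgeR adjusted p 8.1e-05). SOC libraries held Olfml1 at 13.9, 9.42, 11.7 and 8.73 CPM at E16, 4.94, 6.01, 5.01 and 4.05 CPM at P0 and 11.9, 12.3 and 12.7 CPM at P16. Olfml1 rose from P0 to P16 (log2 fold change of 1.56 with an SE of 0.18, edgeR adjusted p 2.12e-05), after a difference of -1.09 (SE 0.17) from E16 to P0 that did not reach 2.5-fold. Dusp10 was at 9.93, 8.17, 9.58 and 8.51 CPM at E16, 8.06, 9.71, 8.33 and 4.73 CPM at P0 and 19.7, 17.9 and 18.8 CPM at P16 in the SOC libraries. Dusp10 rose from P0 to P16 (log2 fold change of 1.56 with an SE of 0.20, edgeR adjusted p 3.83e-05). P0 was thus the age of the lowest mean in the SOC for Olfml1 and Dusp10. In CPM the ratio of the P16 mean to the P0 mean was 2.45 for Olfml1 and 2.44 for Dusp10. For Spock1 the ratio of P16 to E16 was 2.49. All these lie under the limit of 2.5, which the fitted changes passed. For Pkd2l1 the E16 libraries had 0, 0, 0 and 0.172 CPM, the P0 libraries 0, 0, 0 and 0.189 CPM and the P16 libraries 1.99, 1.499 and 1.28 CPM. Pkd2l1 rose from P0 to P16 (log2 fold change of 5.04 with an SE of 1.11, edgeR adjusted p 0.00244). Pkd2l1 passed the filter only through P16, the age at which it is high, so this call is a description. The call was lost without P16 replicate 1 (adjusted p 0.0114) and with no filter on low counts (0.0116). With the 0s of the 6-library table set to 20 counts the ratio of the means was 2.15 and the call did not hold (adjusted p 0.0403).

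**Figure D5:**
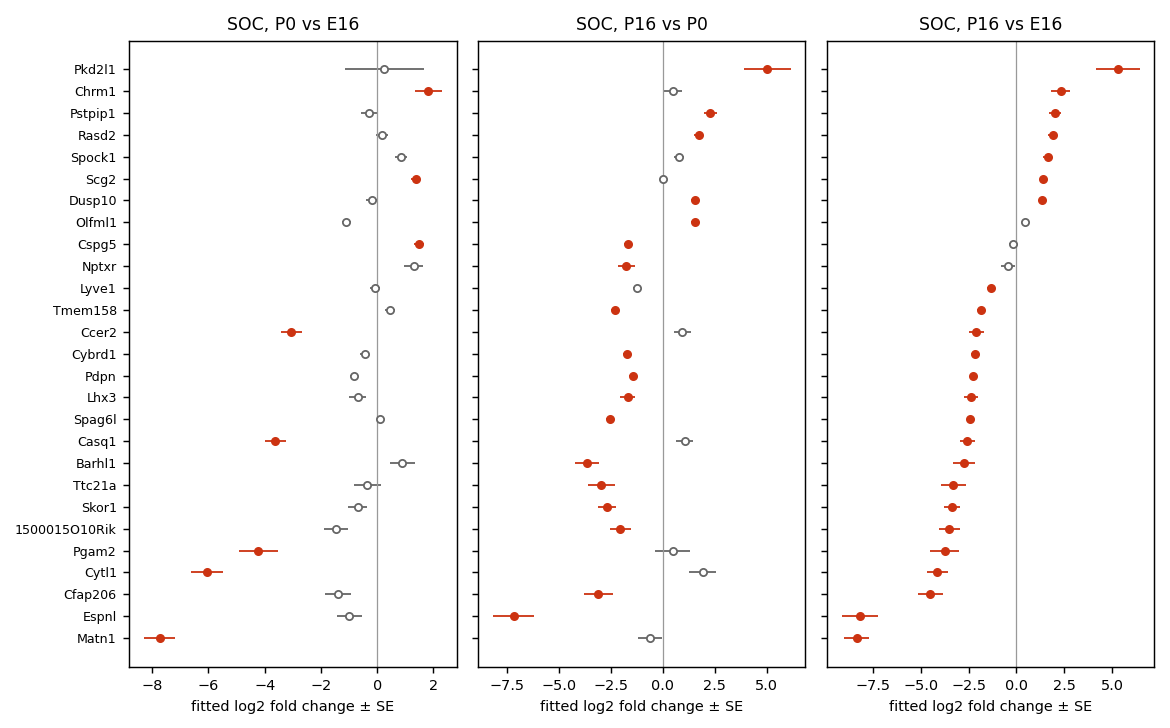
Fitted log2 fold changes with SE (bars) of the 27 members called in some SOC contrast, in the 3 contrasts, with filled red points for calls and open points for the rest, ordered by P16 vs E16. From P0 to P16 the calls run from -7.18 for Espnl, listed at 0 at P16, to 5.04 for Pkd2l1, listed at 0 in 6 libraries of E16 and P0.

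Among the 18 members tested and not called in any SOC contrast were several of the highest cochlea members. SOC libraries held Nckap5 at 12.4, 20.6, 18.2 and 17.5 CPM at E16, 8.20, 9.02, 8.51 and 10.1 CPM at P0 and 5.69, 6.93 and 8.84 CPM at P16. From E16 to P0 its log2 fold change was -0.89 (SE 0.17, adjusted p 0.00117), below the 2.5-fold limit and opposite in sign to the cochlea. For Aldh1a2 the E16 libraries had 17.4, 19.8, 17.1 and 18.2 CPM, the P0 libraries 24.9, 14.3, 17.5 and 18.5 CPM and the P16 libraries 7.64, 3.36 and 15.3 CPM. P16 replicate 2 was the lowest and P16 replicate 3 lay near the younger libraries. From P0 to P16 its log2 fold change was -0.88 (SE 0.34, adjusted p 0.0471), and without P16 replicate 3 it was called lower (-1.45, adjusted p 0.00232). Lgr6 was at 5.25, 7.02, 6.73 and 4.77 CPM at E16, 5.42, 7.03, 7.62 and 3.67 CPM at P0 and 4.77, 3.48 and 5.95 CPM at P16 in the SOC libraries. Its libraries overlapped at all ages (from E16 to P0 0.03, SE 0.23, and from P0 to P16 -0.07, SE 0.25). SOC libraries held Syt6 at 8.48, 13.3, 12.9 and 9.499 CPM at E16, 14.01, 17.5, 16.2 and 20.8 CPM at P0 and 11.7, 13.003 and 11.8 CPM at P16. Its differences were 0.68 (SE 0.18) and -0.24 (SE 0.19). Lypd2 was not called from P0 to P16 (-2.04, SE 0.73, adjusted p 0.0350), but it was without P16 replicate 3 (-4.15, adjusted p 0.00106) and with the term for the joined table (-3.61, adjusted p 0.00269). The others were Ager, Asic2, BC022687, Fam188b2-ps, Grin2b, Grp, Il20rb, Slc16a14, Slc52a3, Spdef, Syt1, Tmem255b and Ttc34. Of these 18, 10 were called under some other setting or without some library. Those never called were Nckap5, Lgr6, Syt6, BC022687, Il20rb, Slc16a14, Slc52a3 and Tmem255b. Spdef, one of the steepest in the cochlea, was at 0.281, 0.462, 0.220 and 0 CPM at E16 and 1.34, 1.25, 0.798 and 0 CPM at P0 and listed at 0 at P16, with the 0s falling on 2 joined tables.

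Over the 47 members with SOC reads, the mean was highest at E16 in 18, at P0 in 19 and at P16 in 10. How all genes split over the ages was not counted, so these numbers describe the members only. For members near the floor, such as Mst1, Fer1l6 and Ager, reads hidden by the joined tables may change the age. Among the members, the highest SOC mean thus fell on each of the 3 ages.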

How the data were processed

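RNA was sequenced from 9 cochlea and 11 SOC libraries. The authors aligned reads with STAR 2.5.3a to mm10 and deposited raw counts per GENCODE gene made with HTSeq, with the annotation version and the use of strand not given in the sources used here. All 20 columns were used. CPM were computed on column totals. The members, the gene lists and the named genes were chosen with earlier results of these data known, and roles, platelet genes and T cell genes after the values were seen. Members were named in full for the 12 highest P0 means, the 8 largest ratios, the list members and up to 5 SOC calls per contrast and direction. SOC ages were compared with edgeR 4.0.16 in R 4.3.3 (TMM factors, quasi-likelihood F test over the 3 ages, Benjamini-Hochberg adjustment), with calls at an adjusted p under 0.01, a fold change over 2.5, the study's thresholds, and separated libraries. Folds against groups at the floor used 3 counts per library, or 20 where a joined table lacked the gene. The 4 pairs of SOC libraries with the same number at E16 and P0 had correlated deviations from their group means (0.445 to 0.765, each over 0.1), so blocked values are given where they change a call. The labels tie no numbers together, and 2 of the 4 E16 libraries correlated best with their own number. The test was checked on simulated data. DESeq2 1.42.0, other factors, filters, terms and left-out libraries were alternatives. Annotation came from GENCODE M21 and promoters from RefSeq.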

Additional observations from a re-analysis of the deposited data

Results flagged for a closer look

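In groups of 4 SOC libraries, 8 of 82 member and age combinations had a library set apart from the others by Dixon's criterion, which chance gives in about 1 of 20, and 5 of the 8 were replicate 4, which belongs to another joined table than replicates 1 to 3. For Cspg5 at P0, replicate 4 was the lowest at 266.4 CPM, against 394.0 CPM for the nearest. For Ager at E16, replicate 4 was the lowest at 0 CPM, against 0.877 CPM, and for Fam188b2-ps at E16 it was the highest at 1.29 CPM against 0, where the 0s fall on whole joined tables and may hide up to 20 counts. For Chrm1 at P0, replicate 4 was the highest at 4.69 CPM against 1.68 CPM, and for Cfap206 at P0 at 2.80 CPM against 1.54 CPM. For Casq1 at E16, replicate 1 was the highest at 10.4 CPM against 6.49 CPM, and for Pgam2 at 13.03 CPM against 5.72 CPM. For Lypd2 at P0, replicate 1 was the highest at 3.69 CPM against 1.51 CPM.

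In 12 members every P0 library lay above every E16 library in the cochlea and below every E16 library in the SOC. They were 1500015O10Rik, Nckap5, Pdpn, Matn1, Cybrd1, Cytl1, Espnl, Olfml1, Ccer2, Casq1, Pgam2 and Lhx3. They were 12 of the 45 tested, where 20.8% of all genes tested in the SOC had every P0 library below every E16 library. These shares are not far apart, so the count is not read as a trait of the members. In the other direction, 9 members had every SOC P0 library above every E16 library, a share that was not counted over all genes. The difference between the organs was not tested, and it stands beside the other dissection of the SOC at E16. The direction in the cochlea was fixed by the choice of members.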

How the results depend on the processing

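The number of members followed the limits, with 178 at a minimum mean of 1 CPM, 27 at 20 CPM, 188 at a ratio of 1.5 and 19 at a ratio of 3. TMM factors or DESeq2 size factors gave 71 genes, 65 of them members (without Cspg5 and Grin2b). Leaving out a cochlea library gave 67 to 112 genes, which held at least 64 of the members. In the SOC the rule found 1 member at a ratio of 1.5. Tested with glmTreat against the fold change, from E16 to P0 0 members and 75 of all genes were higher and 437 of all genes lower, from P0 to P16 0 members were higher and 5 lower (586 and 468 of all genes), and from E16 to P16 1 member was higher (1081 and 1342 of all genes). The list genes lower at P0 than at E16 in the cochlea, 4 in the fit reported, were 3 to 7 with a cochlea library left out. The other counts of members and of all genes stayed within 1.5 times.

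For the 50 member calls, all 948 refits kept the direction of the log2 fold change, and in 69 the call was lost. With glmTreat left aside, 36 of the 50 calls held in all of them. Upper-quartile factors moved the median of all genes to -0.18 (log2) from P0 to P16 and -0.27 from E16 to P16, from -0.07 and -0.15. With the replicate block, 4 members were higher and 6 lower from E16 to P0, 6 and 13 from P0 to P16, and 7 and 17 from E16 to P16. Of all 16588 genes, 582 and 1213, 1451 and 1625, and 2139 and 2646 were called with the block. From E16 to P0 in the SOC the block added Ttc34 and 1500015O10Rik, from P0 to P16 it added Fam188b2-ps, and from E16 to P16 it added Syt1 (1.36) and Lypd2 (-2.62) and ended the calls of Lyve1 and Dusp10 (1.25). Outside the SOC pairs of E16 and P0, libraries shared only a number, with correlated deviations above 0.1 in 1 of 3 pairs of P16 with either other age in the SOC and in 5 of 9 cochlea pairs. With a term for the joined table, 4 members were higher and 6 lower from E16 to P0, 6 and 15 from P0 to P16, and 7 and 19 from E16 to P16. Of all 16588 genes, 632 and 1328, 1469 and 1535, and 2172 and 2614 were called with this term. Calls were also gained, in 21 combinations of member and contrast and 10 of the 18 members not called otherwise. Counts of 20 in place of 0s of joined tables and the fit of the 6-library table alone were chosen after seeing the data. Depth limits statements on members under about 1 CPM in the SOC.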
